A study of Mus musculus with 29 samples.

Results

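The sites of SOX2-HA and SOX15-HA are the regions where peaks were called after the HA-tagged factor had been precipitated from NIH-3T3 cells, a mouse fibroblast line. They were taken from the 2 peak lists of SOX2-HA and the 1 list of SOX15-HA. The SOX2-HA peaks of both replicates were merged, and each region was sorted by whether a SOX2-HA and a SOX15-HA peak overlapped by at least 1 bp. This gave 25934 sites among the 168546 merged sites of all 28 lists. Of these, 4476 were shared by the 2 factors, 20970 were SOX2 only and 488 were SOX15 only. The cells carried a lentiviral transgene of the factor behind a doxycycline-inducible promoter and expressed the rtTA3G transactivator constitutively. They received 500 ng/ml doxycycline overnight and were fixed with 1% formaldehyde, and the same anti-HA antibody was used for all constructs. SOX2-HA has 2 biological replicates and SOX15-HA has 1 library, so no error between libraries is known for SOX15-HA. The peak lists do not give the amount of each factor in the cells.

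SOX2 and SOX15 belong to the SOX family, whose members bind DNA through an HMG box that contacts the minor groove and bends the helix. Both are classed in groups close to each other in sequence (SOXB1 and SOXG) and recognize short sites with the core ACAATG or ACAAAG. SOX2 is known for keeping embryonic stem cells and neural progenitors undifferentiated, where it works beside OCT4. SOX15 is known from placenta and from muscle satellite cells. AP-1, the dimers of FOS and JUN proteins, binds TGAGTCA and is abundant at the enhancers of cultured fibroblasts.

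The sequences below show how the SOX and AP-1 letters that are counted further on lie in single sites of each class. They come from wide peaks that were chosen for holding SOX letters and had peaks of fewer than 10 of the 24 constructs, so they do not show how often a class holds these letters. Not every site of this kind is shown. Each line gives 101 bases of the plus strand of GRCm38, centred on the SOX letters nearest the midpoint of the peak. The SOX letters are in capitals, namely ACAATG and ACAAAG or, read on the other strand, CATTGT and CTTTGT. The AP-1 letters TGAGTCA and their other strand TGACTCA are in capitals as well. The place named is that of the peak midpoint. The shared sites were the following.
intron of Abtb2, chr2:103670104-103670204: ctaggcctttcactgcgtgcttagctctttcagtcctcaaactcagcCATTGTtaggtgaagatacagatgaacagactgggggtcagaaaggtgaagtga
between genes, nearest start Tfb1m, chr17:3597780-3597880: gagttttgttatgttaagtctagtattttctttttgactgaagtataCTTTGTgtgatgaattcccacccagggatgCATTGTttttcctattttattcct
intron of Ank, chr15:27516937-27517037: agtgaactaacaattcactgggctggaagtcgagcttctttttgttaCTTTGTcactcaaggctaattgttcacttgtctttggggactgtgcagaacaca
These peaks were 1458, 952 and 944 bp wide in the SOX15-HA list, 1588, 1325 and 1089 bp in SOX2-HA replicate 1, and 1305, 192 and 472 bp in SOX2-HA replicate 2. A further shared site, 27153 bp from the start of Fn1, the gene of the matrix protein fibronectin, was chosen after the values were seen because it holds SOX and AP-1 letters side by side.
between genes, nearest start Fn1, chr1:71680509-71680609: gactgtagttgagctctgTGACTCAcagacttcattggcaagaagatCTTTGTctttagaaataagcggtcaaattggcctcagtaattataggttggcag
Its peak was 654 bp wide in SOX15-HA, 838 bp in SOX2-HA replicate 1 and 233 bp in SOX2-HA replicate 2. The SOX2 only sites, taken from the list of replicate 2, were the following.
intron of Fbxl2, chr9:114012159-114012259: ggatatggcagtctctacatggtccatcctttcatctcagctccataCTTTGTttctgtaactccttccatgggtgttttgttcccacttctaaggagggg
intron of Vrk1, chr12:106045750-106045850: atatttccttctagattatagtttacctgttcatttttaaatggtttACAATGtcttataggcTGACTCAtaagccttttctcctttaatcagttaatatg
intron of Syn3, chr10:86445345-86445445: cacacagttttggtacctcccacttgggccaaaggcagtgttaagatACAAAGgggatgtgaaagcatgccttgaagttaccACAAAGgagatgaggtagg
They were 1480, 853 and 830 bp wide in replicate 1 and 1286, 759 and 701 bp in replicate 2, and the Vrk1 site holds an AP-1 sequence beside the SOX letters. The central 200 bp of the Fbxl2 peak were wholly repeat-masked. The SOX15 only sites were the following.
between genes, nearest start Vmn1r77, chr7:12014254-12014354: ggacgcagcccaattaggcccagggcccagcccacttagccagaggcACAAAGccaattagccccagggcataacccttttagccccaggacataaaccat
intron of Rpl29, chr9:106431098-106431198: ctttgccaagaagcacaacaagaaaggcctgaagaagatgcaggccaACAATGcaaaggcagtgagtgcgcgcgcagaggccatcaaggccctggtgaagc
They were 1153 and 851 bp wide in the SOX15-HA list, and neither overlapped a SOX2-HA peak. The peak nearest Vmn1r77 was also called in lists of other constructs (9 constructs in all). The Rpl29 peak reached over coding exons of a ribosomal protein gene. Its SOX letters lay 359 bp from the midpoint, and the intron named is the place of the midpoint and not of these letters. The SOX letters lay up to 419 bp from the midpoint, at Abtb2, and so not in every case in the central 200 bp that is counted further on.

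The first question was how far the sites of the 2 factors coincide, and the agreement between the SOX2-HA replicates served as the measure of what 1 factor gives in 2 libraries. Of the 5002 SOX15-HA peaks, 4514 (90.2%, 95% exact interval 89.4 to 91.1) overlapped a SOX2-HA peak. Against the single lists, 4463 (89.2%) lay in SOX2-HA replicate 1 and 3222 (64.4%) in replicate 2. For comparison, 5283 of the 5692 peaks of SOX2-HA replicate 2 (92.8%, 92.1 to 93.5) lay in replicate 1. The interval of SOX15-HA in replicate 1 (88.3 to 90.1) lay below that of the second SOX2-HA library.

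In the other direction the list of 25049 peaks of SOX2-HA replicate 1 was covered little by either of the shorter lists. SOX15-HA covered 4432 of them (17.7%) and SOX2-HA replicate 2 covered 5265 (21.0%). Of the peaks of SOX2-HA replicate 2, 3216 (56.5%, 55.2 to 57.8) lay in SOX15-HA. The 2 SOX2-HA lists differed more in length than the SOX15-HA list differed from replicate 2. With 2 lists against 1, no permutation of the libraries can give a two-sided p-value below 0.333, so the class sizes are descriptions. The intervals cover counting error over peaks and not the error between libraries.

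**Figure D1:**
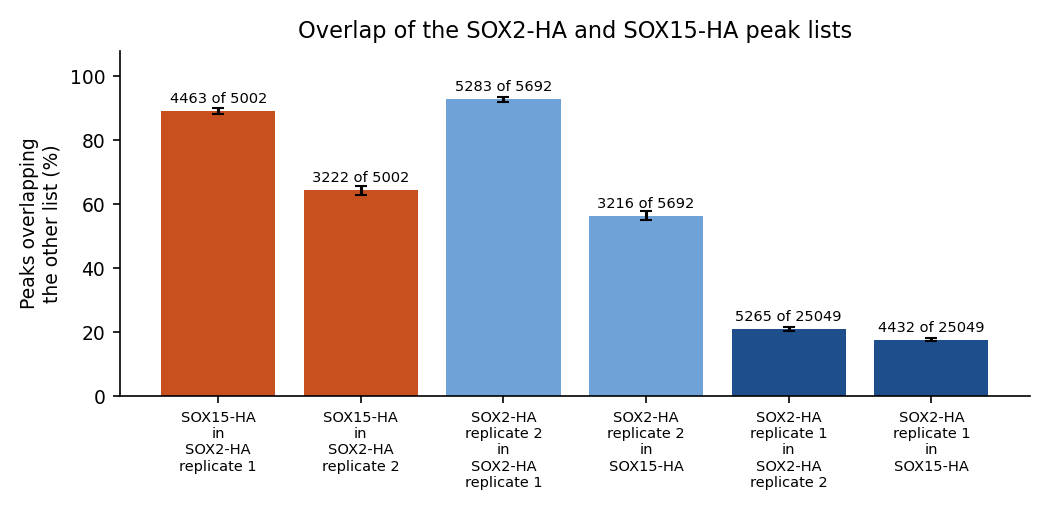
Share of the peaks of each list (named first on the x axis) that overlapped a peak of another list by at least 1 bp, in percent. Numbers over the bars give the overlapping peaks of all peaks, and error bars are 95% exact intervals over peaks. SOX15-HA peaks lay in SOX2-HA replicate 1 at 89.2%, close to the 92.8% of SOX2-HA replicate 2.

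Sites found in both SOX2-HA libraries made up most of the shared class. Of the 4476 shared sites, 3172 (70.9%) had peaks of both SOX2-HA replicates, 1256 (28.1%) of replicate 1 alone and 48 (1.07%) of replicate 2 alone. The SOX2 only class was mostly replicate 1, with 18522 sites (88.3%) of replicate 1 alone, 2091 (9.97%) of both and 357 (1.70%) of replicate 2 alone. Read the other way, 60.3% of the 5263 sites of both SOX2-HA replicates were also in SOX15-HA, against 6.35% of the 19778 sites of replicate 1 alone and 11.9% of the 405 sites of replicate 2 alone. The sizes of the 2 classes specific to 1 factor rested on replicate 1. Without it, 1780 sites were SOX15 only and 2476 were SOX2 only. Without replicate 2, 539 SOX15-HA peaks lay outside SOX2-HA.

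Shared peaks were wider than the others in all 3 lists. In SOX15-HA the median width was 300 bp for the 4514 shared peaks (quartiles 233 and 388) and 212 bp for the 488 SOX15 only peaks (192 and 261). SOX2-HA replicate 1 had medians of 516 bp for shared and 292 bp for SOX2 only peaks, and replicate 2 had 328 and 242 bp. The same was seen between the SOX2-HA replicates, where peaks of replicate 2 found in replicate 1 had a median of 289 bp and the 409 others 220 bp. A wider peak has more bases with which to overlap, so width and class are not independent under the sorting rule, and width was therefore not tested. How much of the difference this makes up, and what else links width and class, was not tested either.

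Overlap with SOX2-HA replicate 1 rose with width up to 400 bp. Among SOX15-HA peaks of up to 200 bp, 70.2% lay in SOX2-HA replicate 1 (453 of 645), and among those over 300 and up to 400 bp 96.2% did (1230 of 1279). Peaks of SOX2-HA replicate 2 went from 78.8% to 97.9% over the same widths. In the class over 400 bp both stood slightly lower, at 94.9% and 96.7%. Agreement with SOX2-HA replicate 2 moved further, from 35.2% of the narrowest SOX15-HA peaks to 87.4% of those over 400 bp. In each of the 5 width classes SOX15-HA lay below the second SOX2-HA library in its overlap with the first. The 95% intervals overlapped in the classes over 200 and up to 250 bp, over 300 and up to 400 bp, and over 400 bp.

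**Figure D2:**
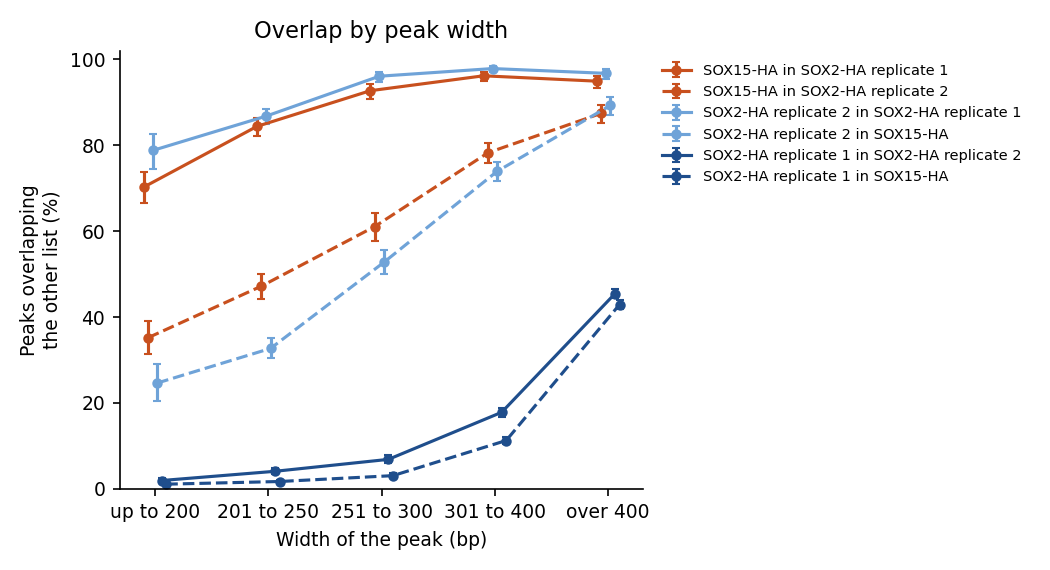
Share of peaks that overlapped another list, in percent, by the width of the peak in bp. Each line is a pair of lists, coloured by the list whose peaks were counted, and error bars are 95% exact intervals. The overlap of SOX15-HA with SOX2-HA replicate 1 ran from 70.2% to 96.2%, next to the line of SOX2-HA replicate 2, while replicate 1 peaks of up to 200 bp were found in SOX15-HA at 1.08%.

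The classes lay at similar places except for SOX15 only. Shared peaks of SOX15-HA had their midpoint in an intron in 50.4% and between genes in 44.5%, and SOX2 only peaks gave 49.4% and 45.7% in replicate 1 and 49.1% and 46.1% in replicate 2. SOX15 only peaks were in introns in 32.0%, between genes in 57.8% and in coding exons in 4.51%, where 0.55% of shared peaks lay. The median distance to the start of a protein-coding transcript was 33635.5 bp for shared and 55615.5 bp for SOX15 only peaks of SOX15-HA. It was 33758.5 bp for shared and 33829 bp for SOX2 only peaks in SOX2-HA replicate 1, and 34633.5 and 34251 bp in replicate 2. Without the stretch of chromosome 5 described below, the SOX15 only median was 36639.5 bp.

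Promoters, taken as 1 kb to either side of a protein-coding start, held few sites of any class. In SOX15-HA 142 of 4514 shared peaks (3.15%) and 27 of 488 SOX15 only peaks (5.53%) were at promoters, a log2 odds ratio of -0.87 ± 0.31 (SE; Fisher's exact test, two-sided, Benjamini-Hochberg adjusted p = 0.0123 over 9 tests). In SOX2-HA replicate 1 the shares were 3.20% of shared and 4.62% of SOX2 only peaks (log2 odds ratio -0.54 ± 0.13, exact test, adjusted p = 3.06e-05). In replicate 2 they were 2.77% and 3.47%, a difference that did not pass the test (log2 odds ratio -0.34 ± 0.22, 95% interval -0.77 to 0.09, exact test, adjusted p = 0.159). The direction was the same in all 3 lists. The 3 contrasts are not independent, because 3172 of the 4476 shared sites (70.9%) had peaks of all 3 lists. These tests take peaks as units and so compare peaks within 1 library. The call in SOX15-HA was lost with promoters of 500 bp (adjusted p = 0.0785, exact test) or 2 kb (0.571), and that in replicate 1 was lost among peaks found in both SOX2-HA lists (0.218).

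SOX15 only peaks differed from shared peaks in chromosome and repeat content. Chromosome 5 held 126 of them (25.8%), although it makes up 5.57% of the genome, and 88 (18%) lay between 3 and 11 Mb of it. Of the shared SOX15-HA peaks, 0.75% lay in that stretch. Other constructs had peaks there too. The share of this stretch in the peaks of a list ran from 0% to 14.6% over the 28 lists with a median of 1.28%, and SOX15-HA had the 10th highest at 2.44%. Repeat-masked bases made up more than 50% of the central 200 bp in 26.2% of SOX15 only peaks and 3.54% of shared peaks, while flanking windows 5 kb away gave 35.2% and 21.9%. In SOX2-HA replicate 2, the 409 peaks absent from replicate 1 were mostly repeat-masked in 24.9%, against 4.15% of the others. Their part in the SOX15 only class was not tested. Median GC content was 50.0% in SOX15 only and 45.0% in shared windows.

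Most SOX15 only peaks had no SOX2-HA peak within 5 kb. The share expected for random positions was not computed, so the counts do not tell nearness from avoidance. A SOX2-HA peak lay within 500 bp of 25 of the 488 (5.12%) and within 5 kb of 133 (27.3%).

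The letters ACAATG or ACAAAG, counted on both strands in the central 200 bp and called the SOX sequence here, were frequent in shared peaks and near the flanking level in SOX15 only peaks. Among shared SOX15-HA peaks 2841 of 4514 (62.9%) held the SOX sequence, with 27.7% in flanking windows 5 kb to either side that touched no peak. Among SOX15 only peaks 160 of 488 (32.8%, 28.6 to 37.1) held it, with 30.1% in their flanks. The log2 odds ratio between the classes was 1.80 ± 0.15 (exact test, adjusted p = 1.19e-36). The single sequences behaved alike. ACAATG was in 31.9% of shared and 15.8% of SOX15 only peaks, and ACAAAG was in 43.1% and 20.9%. Of the 32851 promoters of the RefSeq table for GRCm38, each 300 bases long, 12.6% hold ACAATG and 18.7% hold ACAAAG. The related letters ACAAGG, which SOX factors are not known to prefer, were at 14.5% in shared and 15.2% in SOX15 only peaks, with flanks of 11.7% and 12.5%.

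The difference was of like size among narrow peaks and outside chromosome 5 and repeats. Among SOX15-HA peaks of 250 bp or narrower the SOX sequence was in 62.3% of 1453 shared and 33.3% of 351 SOX15 only peaks. Without the stretch of chromosome 5 the shares were 63.0% and 33.2%, and without mostly repeat-masked peaks they were 63.2% and 36.0%. Without SOX2-HA replicate 1, SOX15 only peaks held it in 44.0% (log2 odds ratio 1.49). These subsets were chosen after the values were seen, except for leaving out the replicate. As a measure of what a list gives outside its partner of the same factor, the 409 peaks of SOX2-HA replicate 2 outside replicate 1 held the SOX sequence in 66.0% (61.2 to 70.6), with 23.9% in their flanks.

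In the SOX2-HA lists the SOX sequence gave opposite directions. In replicate 1, 60.4% of shared and 52.1% of SOX2 only peaks held it (log2 odds ratio 0.49 ± 0.05, exact test, adjusted p = 1.57e-23). In replicate 2, 70.5% of shared and 75.7% of SOX2 only peaks held it (log2 odds ratio -0.38 ± 0.09, exact test, adjusted p = 3.06e-05). When only the replicate 1 peaks that replicate 2 also had were kept, replicate 1 turned to the direction of replicate 2. Then 66.0% of shared and 72.5% of SOX2 only peaks held the SOX sequence (log2 odds ratio -0.44, exact test, adjusted p = 1.66e-06, chosen after the values were seen). The lowest share among the replicate 1 groups was in the 1262 peaks that SOX15-HA had and replicate 2 did not, with 46.4%. The 18522 peaks of replicate 1 alone gave 49.7%. At sites that both SOX2-HA libraries had, the SOX sequence was thus more frequent where SOX15-HA had no peak. In the whole peak instead of its central 200 bp, the difference in replicate 2 was gone (80.3% and 80.1%, adjusted p = 0.867, exact test).

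The seven-letter forms ACAATGG and ACAAAGG followed the same order. At least 1 of them was in 27.2% of shared and 11.7% of SOX15 only peaks of SOX15-HA, with flanks of 7.7% and 8.9%. In SOX2-HA replicate 2 they were in 33.7% of shared and 39.8% of SOX2 only peaks. Windows with 2 or more SOX sequences made up 23.2% of shared and 8.4% of SOX15 only peaks in SOX15-HA, and 29.1% of shared and 36.8% of SOX2 only peaks in SOX2-HA replicate 2.

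**Figure D3:**
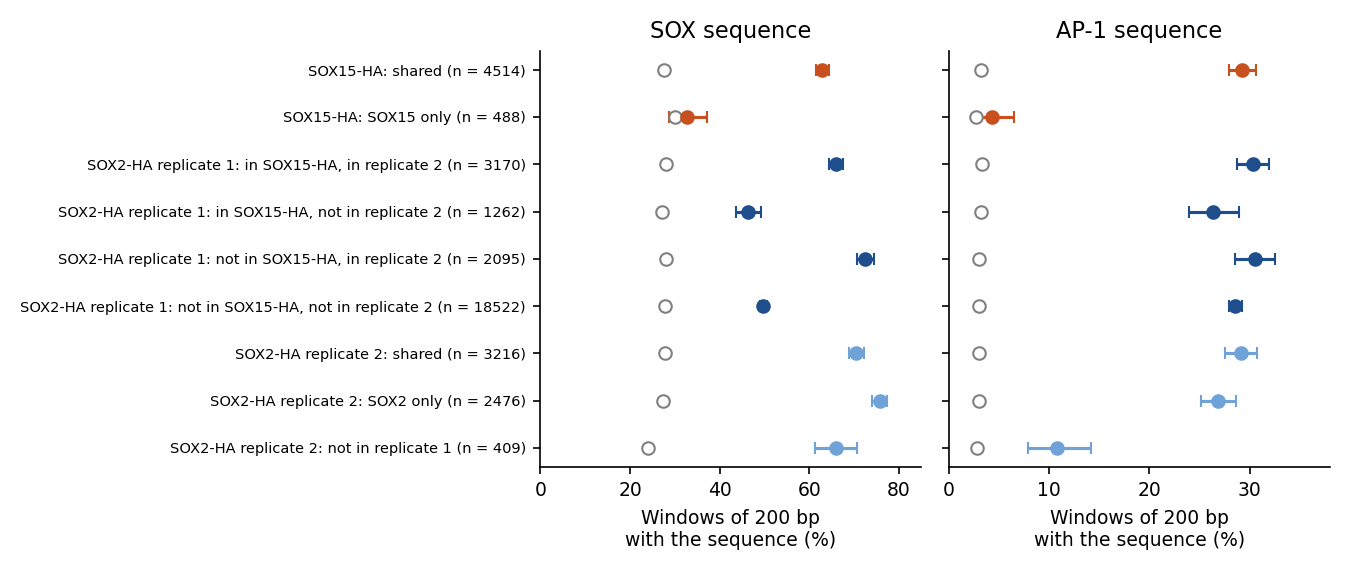
Share of central 200-bp windows with the SOX sequence (left) and the AP-1 sequence (right), in percent, for groups of peaks named by list and by the lists they overlapped. Filled points are peaks with 95% exact intervals, and open grey points are flanking windows 5 kb away. SOX15 only peaks sit beside their flanks in both panels, at 32.8% and 4.30%, whereas the 409 peaks of SOX2-HA replicate 2 outside replicate 1 hold the SOX sequence in 66.0%.

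The AP-1 sequence TGAGTCA, with its other strand TGACTCA, was in all classes but SOX15 only at about the same share. It was in 1321 of 4514 shared SOX15-HA peaks (29.3%, flanks 3.2%) and in 21 of 488 SOX15 only peaks (4.30%, 2.68 to 6.50, flanks 2.7%). The log2 odds ratio was 3.17 ± 0.32 (exact test, adjusted p = 3.13e-41). Without SOX2-HA replicate 1 the SOX15 only share was 20.9% and the log2 odds ratio 0.70. Of the RefSeq promoters 5.20% hold these letters. In SOX2-HA replicate 1 the shares were 29.2% of shared and 28.8% of SOX2 only peaks (log2 odds ratio 0.03, 95% interval -0.07 to 0.13, exact test, adjusted p = 0.571). In replicate 2 they were 29.1% and 26.9% (0.16, -0.01 to 0.33, exact test, adjusted p = 0.0785). Both SOX2-HA differences passed the test when whole peaks were scanned, in which shared peaks are longer, and both directions then favoured shared peaks. The peaks of SOX2-HA replicate 2 outside replicate 1 held it in 10.8%.

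SOX and AP-1 letters were found in the same window in 17.7% of shared SOX15-HA peaks and in 2.0% of SOX15 only peaks, and neither was found in 25.5% and 65.0%. TGTGGT, the letters of RUNX factors, was in 33.9% of shared peaks against 15.0% of their flanks and 17.2% of SOX15 only peaks. It can overlap CTTTGT, and counted only where it did not overlap SOX letters it was in 32.0% and 16.0%. It is in 16.8% of RefSeq promoters. The letters CAGCTG, an E-box, were in 13.2% of shared and 14.1% of SOX15 only peaks, with flanks of 7.6% and 4.5%, and are in 16.3% of RefSeq promoters. These letters were not tested.

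SOX letters were concentrated at the midpoint of shared peaks. In SOX15-HA their density was 5.75 per kb in the 50 bp after the midpoint and 1.63 per kb at 450 to 500 bp. In SOX2-HA replicate 2 it reached 9.14 per kb for SOX2 only and 7.14 per kb for shared peaks. The order was the other way in replicate 1, with 4.34 per kb for SOX2 only and 5.40 per kb for shared peaks. SOX15 only peaks stayed between 1.19 and 2.54 per kb over the 1 kb window. AP-1 letters reached 1.76 per kb in shared SOX15-HA peaks.

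**Figure D4:**
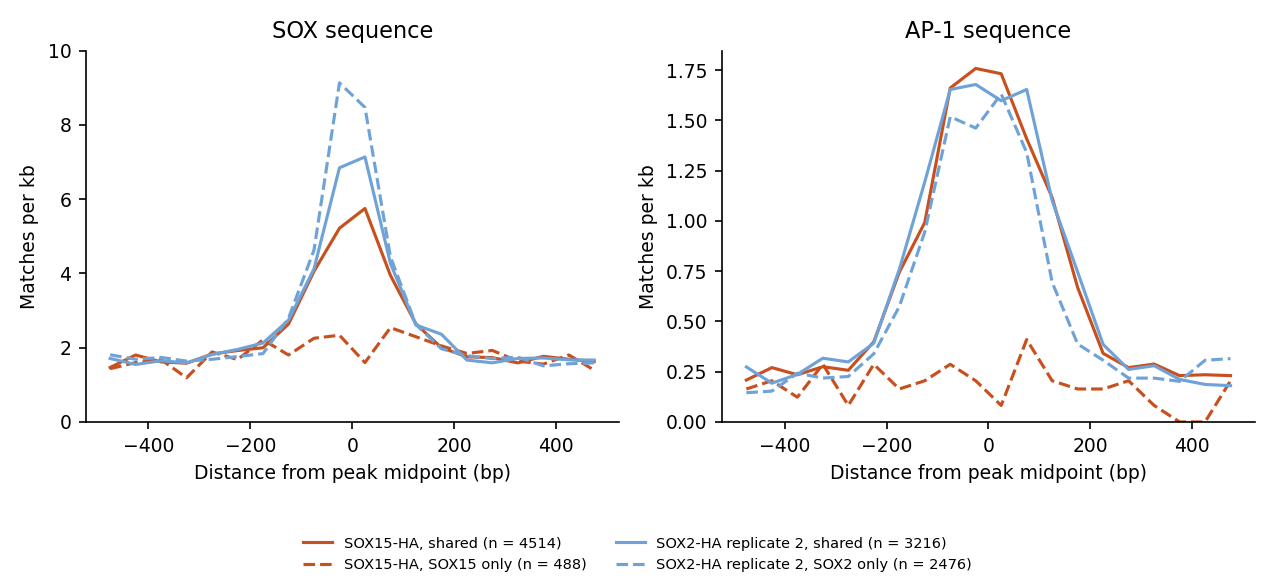
Density of SOX (left) and AP-1 letters (right) around the peak midpoint, in matches per kb counted in bins of 50 bp, against the distance from the midpoint in bp. Lines are shared (solid) and other (dashed) peaks of SOX15-HA and SOX2-HA replicate 2. The SOX density of SOX2 only peaks in replicate 2 reaches 9.14 per kb and that of SOX15 only peaks stays at or below 2.54 per kb.

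Peaks of other constructs lay over the shared sites more than over the others. Of the 22 other constructs, 14 had a lower and 8 a higher share among SOX15 only than among shared SOX15-HA peaks. DLX6-HA, a homeodomain factor, overlapped 81.1% of shared and 5.74% of SOX15 only peaks, and BHLHB8-HA, a bHLH factor, overlapped 79.8% and 37.7%. DLX1-HA overlapped 64.0% and 7.99%. The opposite held for OCT4-HA co-expressed with SOX2-YPET (2.30% of shared and 27.3% of SOX15 only peaks) and RHOX11-HA (6.78% and 24.2%). TEAD1-HA overlapped 0.93% of shared and 3.28% of SOX15 only peaks. HLF-HA overlapped 13.7% (12.7 to 14.7) and 16.0% (12.8 to 19.5), with intervals that overlap. Outside the stretch of chromosome 5, OCT4-HA with SOX2-YPET still overlapped 21.8% of the 400 remaining SOX15 only peaks. In the 409 peaks of SOX2-HA replicate 2 outside replicate 1, DLX6-HA overlapped 5.62%, DLX1-HA 7.09% and BHLHB8-HA 21.8%. OCT4-HA with SOX2-YPET overlapped 12.0% of them and RHOX11-HA 15.2%, so these directions were not particular to SOX15 only peaks. In both SOX2-HA lists all 22 constructs had a lower share among SOX2 only than among shared peaks. DLX6-HA, for example, overlapped 82.4% of shared and 46.5% of SOX2 only peaks in replicate 1. Lists differ in length, so shares were compared between classes for 1 construct and not between constructs. Shared peaks were wider than the others in all 3 lists, and a wider peak overlaps other lists more easily. These shares, and the construct counts below, were not matched for width.

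Sites at which at least 10 of the 24 constructs had a peak, called widely shared here, made up 11.2% of shared SOX15-HA peaks, 4.71% of SOX15 only peaks, and 0.44% and 0.81% of SOX2 only peaks in replicates 1 and 2. The 24 include SOX2-HA and SOX15-HA. A shared peak therefore counts 2 constructs by its class and any other peak 1, so these shares differ in part by the sorting rule. No construct besides SOX2-HA and SOX15-HA had a peak at 5.76% of shared and 43.9% of SOX15 only peaks. The 3 widest shared peaks of the SOX15-HA list were of the widely shared kind and lay over ribosomal protein genes. They were at Rpl7a (chr2:26911094-26912759, 1666 bp in SOX15-HA, 1555 bp in SOX2-HA replicate 2 and none in replicate 1, 21 constructs), Rpl21 (chr5:146834232-146835883, 1652 bp, with 1655 and 1635 bp in SOX2-HA, 21 constructs) and Rpl10 (chrX:74271439-74272929, 1491 bp, with 842 bp in SOX2-HA replicate 2 and none in replicate 1, 17 constructs). The Rpl21 and Rpl10 peaks had their midpoint in a coding exon, and the Rpl7a peak in an intron. The widest SOX2 only peaks of the replicate 2 list also had peaks in replicate 1. They were in introns of Fbxl2 (chr9:114011481-114012766, 4 constructs), Vrk1 (chr12:106045545-106046303, 2 constructs) and Syn3 (chr10:86444865-86445565, 3 constructs). Among the widest shared peaks of the SOX15-HA list with fewer than 10 constructs were intronic sites of Abtb2 (chr2:103669006-103670463, 7 constructs), Lvrn (chr18:46863399-46864463, 8 constructs) and Zfp608 (chr18:54906087-54907042, 7 constructs). Sites on this chromosome were passed over when sequences were chosen for printing. The Zfp608 peak was 956 bp wide in SOX15-HA, 956 bp in SOX2-HA replicate 1 and 856 bp in replicate 2. The SOX15 only peaks whose sequences are printed above were at chr7:12013739-12014891 and chr9:106430364-106431214.

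Each site was assigned to the nearest start of a protein-coding transcript within 100 kb to compare target genes. Of 21829 protein-coding genes, 2371 (10.9%) received a shared site, 6873 (31.5%) a SOX2 only site and 231 (1.06%) a SOX15 only site. SOX2-HA sites reached 7380 of the 21829 genes and SOX15-HA sites 2523, with 2442 in common, which is 96.8% of the SOX15-HA genes and 33.1% of the SOX2-HA genes. The 2371 genes with a shared site count for both factors by definition. The number in common therefore mostly restates the overlap of sites and is not a separate result. Of the genes with a shared site, 1864 (78.6%) also had a SOX2 only site. Of the 231 genes with a SOX15 only site, 150 (64.9%) had a SOX2-HA site elsewhere and 81 had none. Assignment reached 76.1% of shared, 75.6% of SOX2 only and 61.7% of SOX15 only sites. With sites within 10 kb of a start, 1010 genes (4.63%) had a shared site.

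The genes with the most shared sites were of 2 kinds. Sox6 (chr7:115470872-116038796, minus strand), a SOXD factor of cartilage and muscle, had 9 shared and 10 SOX2 only sites, from 19 peaks in SOX2-HA replicate 1, 10 in replicate 2 and 9 in SOX15-HA. Bnc2 (chr4:84275095-84675275, minus strand), a zinc finger protein of mesenchymal cells, had 8 shared sites, from 18, 7 and 8 peaks. Camk1d (a calcium-dependent kinase), Frmd4a (a FERM domain scaffold), Akap13 (an anchoring protein of protein kinase A) and Cyth3 (an ARF exchange factor) had 7 each, and Ankrd44 (an ankyrin repeat protein) had 6. At these 7 genes between 0 and 2 sites were widely shared. At Sfi1, a centrosomal protein gene with 12 shared sites, 15 sites were widely shared. The predicted genes Gm15319 (10 shared and 14 widely shared sites) and Gm17019 (7 and 7) were of the same kind. In all, 32 genes had 5 or more shared sites. Counts of sites per gene, here and for the SOX2 only and SOX15 only sites below, were not adjusted for the length or spacing of genes.

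Sites also lay in runs with gaps of at most 10 kb, which held 54.7% of shared, 46.5% of SOX2 only and 41.4% of SOX15 only sites. The run with the most shared sites covered 65.2 kb over Sfi1 (chr11:3114195-3179369) with 12 shared, 7 SOX2 only and 2 SOX15 only sites. The next was 25.6 kb near Gm17019 (chr5:15036081-15061657) with 7 shared sites, followed by 51.5 kb over Speer4c (chr5:15660685-15712199) with 5 shared, 9 SOX2 only and 4 SOX15 only sites. In these 3 runs 15, 7 and 5 sites were widely shared. Another 3 runs also had 5 shared sites, with fewer sites in all, at 1600014C10Rik, near Hhat and at Cyth3. They held 6, 1 and 0 widely shared sites.

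The genes with the most SOX2 only sites found in both replicates were chosen for sites without SOX15-HA peaks, and their SOX15-HA peaks are given as a description. Fryl had 4 such sites with 7 peaks in SOX2-HA replicate 1, 4 in replicate 2 and 0 in SOX15-HA. Trp63, the p63 factor of epithelial progenitors, had 4 with 8, 6 and 2 peaks. Kif16b, a kinesin of endosomes, had 4 with 11, 7 and 2 peaks. Sox5, the SOXD partner of Sox6, had 4 with 15, 8 and 6 peaks, and so ranked here and had 6 shared sites as well. Sept9 (a septin), Ttc7b and Cpq had 3 each, with 1, 1 and 0 peaks in SOX15-HA.

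Of the 8 genes with the most SOX15 only sites, 4 were on chromosome 5. Zfp804b (chr5:6769010-7344756) had 8, with 1 peak in SOX2-HA replicate 1, 0 in replicate 2 and 8 in SOX15-HA. Tex47 had 4 with 0, 0 and 4 peaks, and Abcb1a, a drug efflux pump, had 3 with 0, 1 and 3 peaks. All 3 lie between 3 and 11 Mb of chromosome 5. 4930572O03Rik, elsewhere on chromosome 5, had 4 beside 5 shared sites. Of the others, 1600014C10Rik had 6 with 5, 4 and 10 peaks, Gm15319 had 6 with 15, 10 and 16 peaks, Scaf8 had 3 with 4, 2 and 6 peaks, and Vmn1r238, a vomeronasal receptor, had 3 with 1, 1 and 3 peaks. Sites at 1600014C10Rik, Gm15319 and 4930572O03Rik were widely shared in 6, 14 and 5 cases.

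The genes of the factors themselves differed. No site of any class was assigned to Sox2. Sox15 (chr11:69655314-69656727, plus strand) had 1 SOX15 only site (chr11:69655824-69656483, 660 bp) with its midpoint 840 bp from the start, in an intron, and reaching over coding exons. No other construct had a peak there, and its central 200 bp held neither SOX nor AP-1 letters. The cells also carried the Sox15 coding sequence in the transgene, and its part in this peak was not tested. In the SOX family list 5 of 19 genes had a shared site, namely Sox4, Sox5, Sox6, Sox9 and Sox13. Sox9, the cartilage factor, had 1 shared and 13 SOX2 only sites, with 14 peaks in SOX2-HA replicate 1 and 1 each in replicate 2 and SOX15-HA. No site was assigned to 10 of the 19 genes. Within 10 kb of a start, 1 of them (5.26%) had a shared site, against 4.63% of all protein-coding genes.

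Gene lists of pathways and cell types were counted against the 10.9% of all protein-coding genes with a shared site and the 31.5% with a SOX2 only site. Genes differ in length and spacing, and no test of the lists was made. Most SOX2 only sites were of replicate 1 alone (88.3%), and 9.97% had peaks of both SOX2-HA replicates. Within 10 kb of a start, 4.63% of all protein-coding genes had a shared site. Of 39 extracellular matrix genes 19 (48.7%) had a shared site and 35 (89.7%) a SOX2 only site, and 9 (23.1%) had a shared site within 10 kb of a start. Fn1 (chr1:71585520-71653200, minus strand) had 3 shared sites with 9, 3 and 3 peaks in SOX2-HA replicate 1, replicate 2 and SOX15-HA. The collagen genes Col1a2 and Col3a1 had 3 each, with 11, 4 and 3 and with 11, 3 and 4 peaks. Thbs2 (thrombospondin 2) and Cd44 (the hyaluronan receptor) had 4 each, and Thbs1, Dcn (decorin), Has2 (hyaluronan synthase) and Timp3 (a metalloproteinase inhibitor) had 3 each.

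Transcription factors of fibroblasts had a shared site in 16 of 32 genes (50.0%) and a SOX2 only site in 24 (75%). Runx1 had 4 shared and 13 SOX2 only sites, from 17, 5 and 4 peaks, Klf6 had 4 from 13, 2 and 4 peaks, and Twist2 had 3 from 7, 2 and 3 peaks. Snai2, a factor of epithelial to mesenchymal transition, had 1 SOX15 only, 3 SOX2 only and no shared sites. Actin and focal adhesion genes had a shared site in 17 of 38 (44.7%). Within 10 kb of a start the shares were 21.1% for this list and 18.8% for the fibroblast factors. Cald1 (caldesmon, 10, 1 and 4 peaks) and Pdlim5 (an actin-binding LIM protein, 17, 3 and 4 peaks) had 4 each. Tns1 (tensin) had 2 shared, 3 SOX2 only and 1 SOX15 only sites.

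Among signalling genes the FGF and MAPK feedback list had a shared site in 12 of 20 genes (60.0%) and a SOX2 only site in 19 (95.0%). Only Spry2 and Dusp4 had a SOX2 only site with peaks of both SOX2-HA replicates. Etv1, an ETS factor of that response, had 3 shared sites from 7, 3 and 3 peaks. The Hippo list had shared sites at 8 of 21 genes (38.1%), with 3 at Vgll4, a TEAD cofactor. The TGF-beta and BMP list had them at 12 of 35 (34.3%). There Tgfbr3, the coreceptor betaglycan, had 4 from 15, 3 and 4 peaks, and Ltbp1, which holds latent TGF-beta in the matrix, had 3. Id2, a target of BMP signalling, had 1 SOX15 only, 4 SOX2 only and no shared sites. The Wnt list had shared sites at 7 of 30 (23.3%), with 3 at the receptor gene Fzd1 from 12, 4 and 3 peaks. Fzd1 lies in the stretch between 3 and 11 Mb of chromosome 5 where many lists had peaks. The AP-1 factor list had them at 3 of 15 (20.0%), with 4 at Jun from 14, 4 and 4 peaks.

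The lists of tissues in which the 2 factors are best known ran from 5.00% to 25% for shared sites. The pluripotency list had a shared site at 1 of 20 genes (5.00%), Myc, and a SOX2 only site at 7 (35.0%). In that list only Klf4 and Myc had a SOX2 only site with peaks of both SOX2-HA replicates. Klf4 had 1 SOX15 only and 7 SOX2 only sites. The muscle progenitor list had shared sites at 2 of 16 (12.5%), Mef2c and Meox2, and SOX2 only sites at 7 (43.8%). The neural progenitor list had shared sites at 5 of 20 (25%) and SOX2 only sites at 12 (60.0%). Cell cycle genes had shared sites at 5 of 20 (25%), and Cdk6 had 1 shared, 8 SOX2 only and 2 SOX15 only sites. Cdk6 lies in the stretch between 3 and 11 Mb of chromosome 5 that held 18% of SOX15 only peaks. Within 10 kb of a start no pluripotency or muscle progenitor gene had a shared site, against 15% of neural progenitor and 10% of cell cycle genes.

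**Figure D5:**
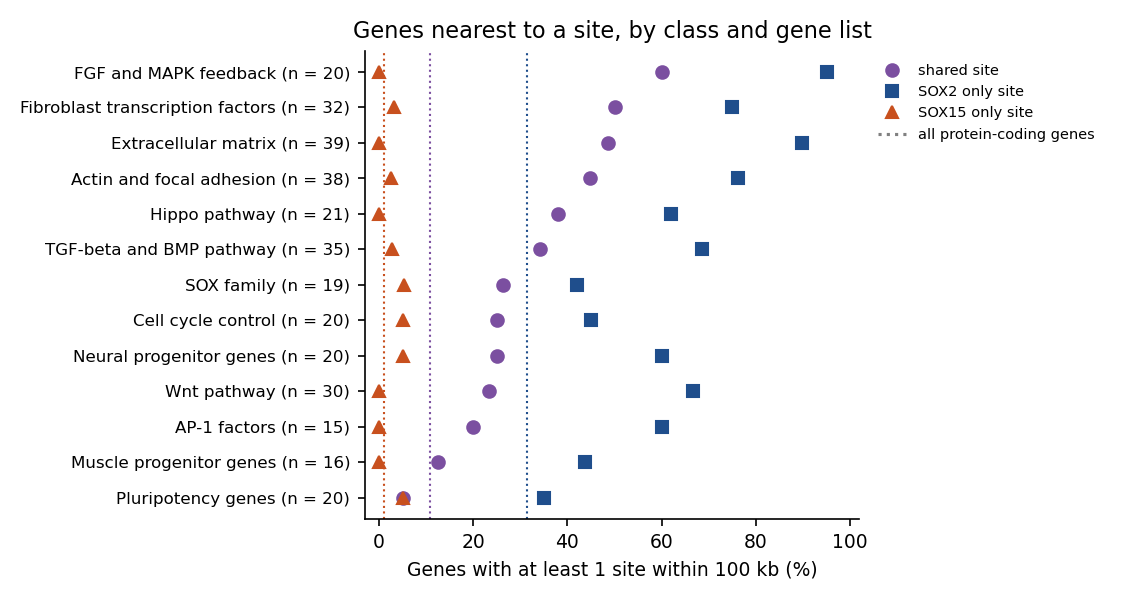
Share of the genes of each list, in percent, that had at least 1 shared (circles), SOX2 only (squares) or SOX15 only site (triangles) as the nearest protein-coding gene within 100 kb. Dotted lines give the shares over all 21829 protein-coding genes, 10.9%, 31.5% and 1.06%. The pluripotency list lies at 5.00% for shared sites and the FGF and MAPK feedback list at 60.0%.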

How the data were processed

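ChIP-seq peaks of HA-tagged factors in NIH-3T3 cells were analysed from the lists of SOX2-HA (2 replicates) and SOX15-HA (1 library), with groups taken from the labels. Per the labels and the methods, the authors aligned reads to mm10 with STAR 2.5.3a, removed duplicates with Picard, called peaks for each sample with MACS2 2.1.1.20160309 in paired-end mode, and left out those over input peaks or the ENCODE blacklist. The deposited files list positions only (chromosome, start, end), with no score or read number, so the depth of each library is unknown and its part in the list lengths was not tested.

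SOX2-HA peaks were merged and compared with SOX15-HA peaks at 1 bp of overlap. Positions were read against GRCm38 and GENCODE vM21, and coordinates count from 1. No peak (0) passed the end of a chromosome. Python 3.11.15, NumPy 2.4.6, SciPy 1.17.1 and Matplotlib 3.10.9 were used. Shares carry 95% exact (Clopper-Pearson) intervals. Differences between classes in a share of peaks were tested by Fisher's exact test (two-sided), with 0.5 added to each cell for the log2 odds ratio, and p-values were adjusted by the Benjamini-Hochberg method over 9 tests at a threshold of 0.05. Peaks, not libraries, are the units of these tests. Overlap classes and counts were tested on simulated data. Members, gene lists, letters and tests were chosen with earlier results of these data known. The text names the 10 genes with the most shared sites, the 8 with the most SOX2 only sites of both replicates, the 8 with the most SOX15 only sites, genes of the lists with a SOX15 only or at least 3 shared sites, Sox2 and Sox15, the 3 widest sites of each class in all and with fewer than 10 constructs, and the 3 runs with the most shared sites. Width was taken in the SOX15-HA list for shared and SOX15 only sites, and in SOX2-HA replicate 2 for SOX2 only sites. Other items were chosen after their values were seen. A few items that these rules name are not reported here. Alternatives covered the overlap, widths, lists, promoter distance, windows, letters and gene assignment.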

Additional observations from a re-analysis of the deposited data

How the results depend on the processing

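No paired analysis was possible because SOX15-HA has 1 list, with no replicate number shared with SOX2-HA. The numbers of sites moved most. With peaks of at least 300 bp, 2236 sites were shared, 11948 SOX2 only and 117 SOX15 only, the share of SOX15-HA peaks in SOX2-HA was 95.0% and the median width difference in SOX15-HA fell to 18 bp from 88 bp. With the 5000 widest peaks of each list, 3863 sites were SOX2 only, 1305 SOX15 only and the share was 73.9%. A reciprocal overlap of 50% gave 1841 SOX15 only sites and 63.2%. Leaving out each SOX2-HA replicate gave 539 to 1780 SOX15 only sites, 2476 to 20617 SOX2 only sites and shares of 64.4% to 89.2%. The share was 89.1% for peaks of fewer than 10 constructs, 91.8% without the stretch of chromosome 5 and 91.9% without mostly repeat-masked peaks, the last 2 chosen after the data were seen.

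The SOX and AP-1 differences between shared and SOX15 only peaks kept their direction and passed under all 14 and 13 alternatives (log2 odds ratios 0.78 to 2.33 and 0.51 to 3.81). The lowest came with the 50% reciprocal overlap. The promoter difference in SOX15-HA was lost with that overlap (-0.18), fewer than 10 constructs (-0.67), peaks of 250 bp or narrower (-0.35), promoters of 500 bp (-0.85) and of 2 kb (-0.19). In SOX2-HA replicate 1 it was lost with starts of all transcripts (-0.13) and among peaks of both replicates (-0.31). The SOX difference turned among replicate 1 peaks found in both replicates (-0.44), and in replicate 2 with whole peaks (0.018). The AP-1 difference in replicate 1 turned with the central 100 bp (-0.048) and among peaks of both replicates (-0.016), and passed with whole peaks in replicates 1 (0.69) and 2 (0.62). Sites within 10 kb reached 1010 genes for shared, 4224 for SOX2 only and 92 for SOX15 only. The cause was not tested for any of these changes.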
